A study of Mus musculus with 4 samples.

Results

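The genes described here belong to families named for the parts or the assembly of the motile cilium. They were chosen by symbol as every Dnah, Dnai, Dnaaf, Cfap, Rsph, Drc and Tekt gene followed by a number. A symbol alone does not show that a gene acts in motile cilia, and 9 of the Cfap genes are in none of the role lists used below. The rule found 69 of the 22399 genes counted: 15 Dnah, 5 Dnaaf, 33 Cfap, 8 Rsph, 3 Drc and 5 Tekt genes. Dnai genes were not analysed here. All 69 are protein-coding genes of GENCODE M21 by gene ID, and no measured value entered their choice, although they were proposed with earlier results of these data known. Nasal lining that carries the olfactory neurons (main olfactory epithelium) was taken at an age of 3 months from C57BL/6J mice, all wild type, and dissociated with papain. There were 4 libraries, 2 from females and 2 from males, with no treatment. Each library was taken as 1 replicate, and since the labels do not say how many animals a library holds, p-values measure only the spread between these libraries. Droplet chemistry that reads the 5′ end of transcripts gave counts of UMIs (unique molecular identifiers, each marking 1 captured RNA molecule).

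A motile cilium beats because dynein arms on its outer microtubule doublets slide one doublet along the next. Radial spokes and the central pair of microtubules regulate the arms, the nexin-dynein regulatory complex links neighbouring doublets, and tektins and other inner proteins line the doublet wall. Dynein arms are built in the cytoplasm by assembly factors before they enter the cilium. Respiratory ciliated cells carry beating cilia of this kind. The cilia of mature olfactory sensory neurons hold the odorant receptors and the transduction channel, and in mammals they do not beat. Transcripts for the same gene families were therefore compared between ciliated cells, neurons and supporting cells.

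Cells were sorted into populations by UMIs of genes that are not members. Ciliated cells had at least 6 UMIs of Dynlrb2 plus Sntn. Omp-positive neurons, the mature ones, had at least 10 UMIs of Omp and under 5 of Gap43, and Gap43-positive neurons, the immature ones, had the reverse. Cyp2g1-rich cells, with at least 10 UMIs of this cytochrome of sustentacular supporting cells, served as a population without motile cilia. A barcode in more than 1 of the ciliated, neuron and Cyp2g1 classes entered none. The populations held 181 ciliated cells (65, 46, 24 and 46 in female 1, female 2, male 1 and male 2), 16089 Omp-positive, 1818 Gap43-positive and 6381 Cyp2g1-rich cells of 36385 in all. A further 991 cells passed both the Omp and the Gap43 gate, and are called double-positive neurons below.

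The exclusion of barcodes in several classes mattered for the ciliated gate. Dynlrb2, a dynein light chain, stood at 193 CPM (UMIs of a gene per 1000000 UMIs in a population's sum) on average in Omp-positive neurons, so 453 of the 646 cells that passed the ciliated gate alone also passed the Omp gate. Taken without the exclusion, the gate would be made mostly of neurons. Cells just outside the gate, with 3 to 5 UMIs, held the members at a summed 2294 to 5249 CPM per library. The 22 cells just inside it, with 6 to 8 UMIs, held 13345 and 11722 CPM in the females but 1305 and 1897 CPM in the males. In the males these were 6 of the 24 ciliated cells of male 1 and 3 of the 46 of male 2. Of them 1 and 0 had at least 3 UMIs of Sntn. Cells just outside the gate held more in the same libraries, at 5249 and 3027 CPM. What the cells just inside add to the ciliated values of the males was not tested. The 159 cells with 9 or more UMIs held 14042 to 17248 CPM.

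Depth was 100725429 to 111577458 UMIs per library, and libraries shared 136 to 172 cell barcodes per pair. The ciliated marker list (Foxj1, Tmem212 and 8 others) summed to 8636 to 10975 CPM in ciliated cells, 1094 to 1149 CPM in Omp-positive, 765 to 795 CPM in Gap43-positive and 42.5 to 49.7 CPM in Cyp2g1-rich cells, and none of its genes was at 0 in ciliated cells. The ciliated sums also held the 5 respiratory secretory markers at 59737 to 105792 CPM, mostly the secreted protein Bpifa1, and the 5 sustentacular markers at 3403 to 6440 CPM, against 141 to 195 CPM in Omp-positive neurons. Immune markers stood at 575 to 1815 CPM. The ciliated sum of male 1 held immature neuron markers at 1026 CPM, globose basal markers at 319 CPM and erythrocyte genes at 603 CPM, against 165 to 308, 61.9 to 95.5 and 1.52 to 10.7 CPM in the other libraries. Their part in the ciliated values was not tested. With at most 65 ciliated cells per library, ciliated values are the least precise, and below the error of a level or share is its SD over the 4 libraries and the error of a log2 difference is its SE. Between populations, the SE and p-value rest on an estimate of the spread shared by the 4 populations. They may therefore understate the spread of the ciliated libraries.

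Members summed to 13973, 14267, 13349 and 16634 CPM in the ciliated cells of female 1, female 2, male 1 and male 2. In Omp-positive neurons the sums were 4605, 4716, 4699 and 4754 CPM, in Gap43-positive neurons 2216, 2202, 2115 and 2211 CPM, and in Cyp2g1-rich cells 434, 442, 441 and 435 CPM. No 2 populations overlapped, and the spread within each was far smaller than the steps between them. The double-positive neurons, at 3867 ± 93.6 CPM (SD, n = 4), lay between the immature and the mature neurons. After each cell was thinned to 2000 UMIs, the median cell had 19 to 23 members detected in the ciliated population, 7 in Omp-positive, 3 or 4 in Gap43-positive and 1 in Cyp2g1-rich cells, over the 176, 15874, 1812 and 6174 cells deep enough. Unthinned medians were 49 to 51, 18, 12 or 13, and 4. The median depth was 11966 to 13245 UMIs in ciliated cells and 7531 to 8343 UMIs in Omp-positive neurons.

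**Figure D1:**
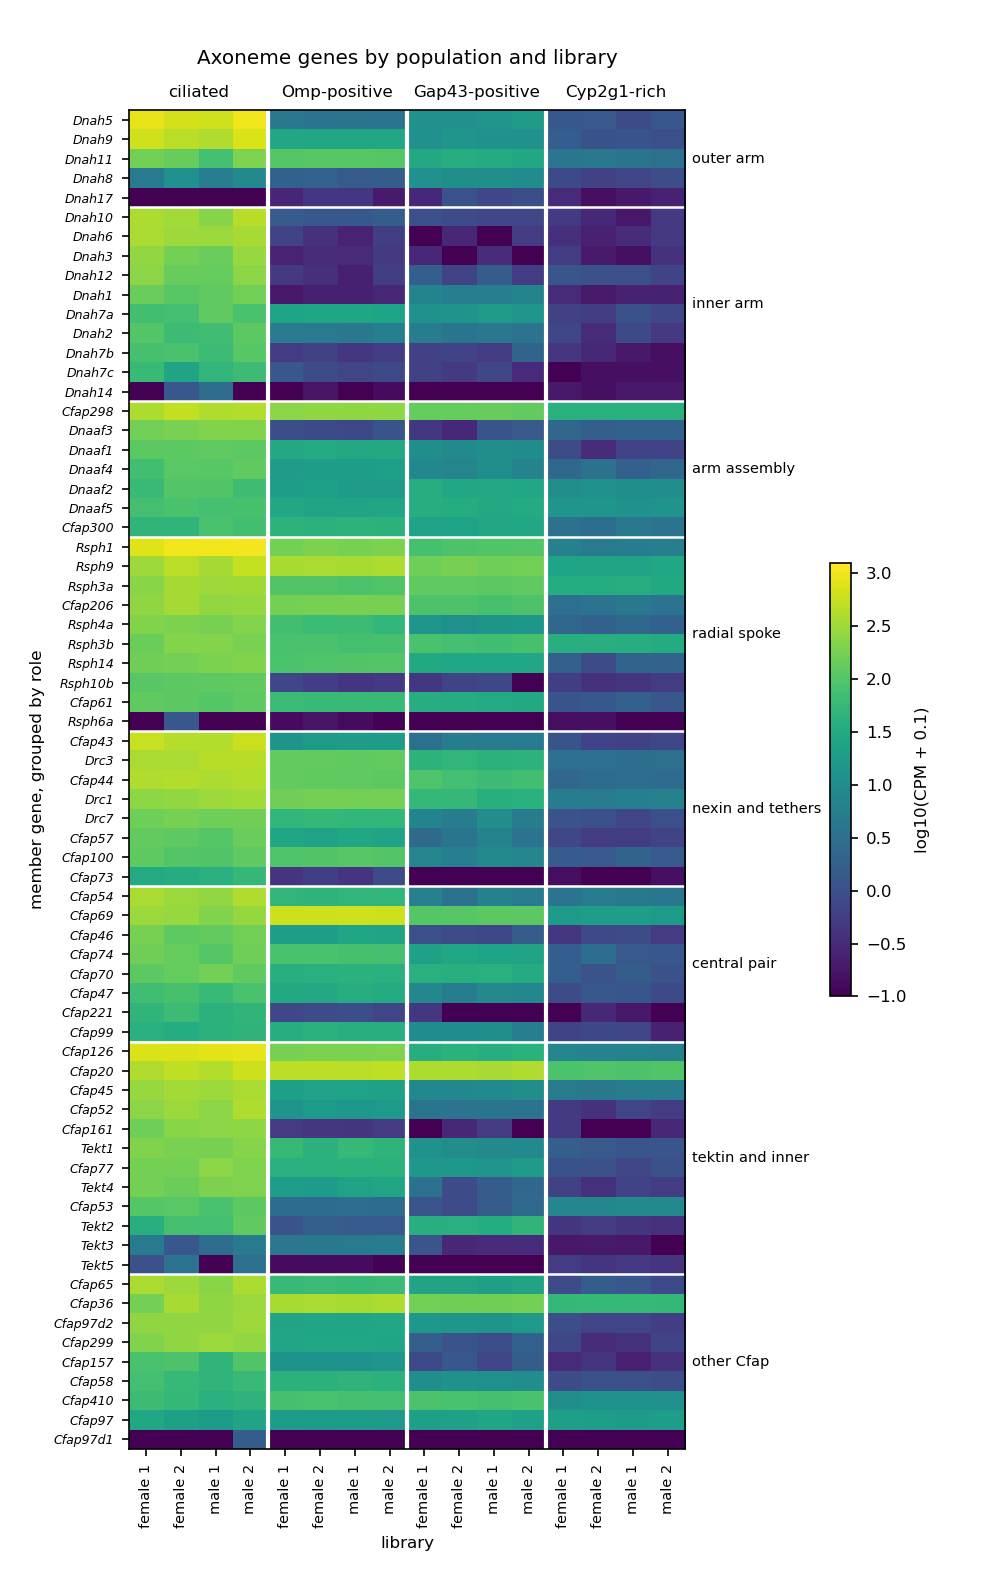
Level of all 69 axoneme genes (rows, grouped by role) in each library of the 4 populations (columns), coloured by log10(CPM + 0.1). Most rows stay bright from the ciliated to the Omp-positive columns, while most inner arm rows go dark there. Within a population the 4 libraries look alike.

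Most axoneme genes were transcribed in mature neurons above the level in supporting cells. Of the 69 members, 65 passed the filter on low counts, while Dnah14, Dnah17, Rsph6a and Cfap97d1 did not and stood at or under 2.82 CPM in every library of the 4 populations. In Omp-positive neurons 55 of the 65 were higher than in Cyp2g1-rich cells, where 44.1% of all genes tested were higher, and 5 were lower, against 42.3% (edgeR quasi-likelihood test with the library as a block, Benjamini-Hochberg adjusted p under 0.05). The median log2 difference was 4.41 over the 65 members and 0.02 over all genes tested. The 5 lower members were Tekt5, Cfap53, Dnah12, Dnaaf3 and Cfap97, and the 5 not called were Dnah1, Dnah3, Dnah6, Cfap161 and Rsph10b. In Gap43-positive neurons 52 of 65 were higher than in Cyp2g1-rich cells (40.3% of all genes) and 4 lower (40.1%), with a median log2 difference of 2.22. Between ciliated and Cyp2g1-rich cells 64 of 65 members were higher (22% of all genes), none was lower (37.7%), and Cfap97 was not called.

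To gauge free RNA in the droplets, neuron levels were read against genes of ciliated cells that neurons hold at very low levels. Tmem212, Ccdc153 and Fam183b, chosen after the data were seen, stood in Omp-positive neurons at a median of 0.115% of their ciliated level. Since they were taken for low neuron levels in these same data, passing their share is no independent check. Of the members, 43 were called higher than in Cyp2g1-rich cells by a log2 difference of at least 1, reached 5 CPM in every Omp-positive library and stood at 3 or more times that share, 0.345%. That call alone was met by 26.2% of all genes tested. Against the planned reference of 8 ciliated markers, whose median share was 9.96%, only 23 did. That list included Foxj1 and Ccdc39, which stood at 266 and 173 CPM in Omp-positive neurons and 8.10 and 3.42 CPM in Cyp2g1-rich cells. The 43 stood at 3.23% to 225% of their ciliated level, with a median of 30.7%. In Gap43-positive neurons the counts were 38 and 22, where 24.1% of all genes tested met the call.

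Free RNA of neurons was read the same way in Cyp2g1-rich cells. Omp, Stoml3 and 6 other genes of mature neurons stood there at 1.56% to 3.18% of their Omp-positive level. Of the 43 members, 26 stood in Cyp2g1-rich cells at or under the upper end of that range, and 17 stood above it, up to 44.4%. Which part of the Cyp2g1-rich values is free RNA was not tested.

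Roles differed in how far neuron levels reached those of ciliated cells. Of the 62 members with at least 5 CPM in every ciliated library, the following numbers also reached 5 CPM in every Omp-positive library: 8 of 9 for radial spokes, 7 of 8 for the nexin-dynein regulatory complex with its inner arm tethers, 7 of 8 for the central pair, 6 of 7 for arm assembly factors, 7 of 10 for tektins and inner proteins, 8 of 8 for Cfap genes in none of these lists, 2 of 3 for outer arms and 1 of 9 for inner arms. In Gap43-positive neurons the numbers, in the same order, were 8, 5, 5, 6, 6, 6, 3 and 2. The share of all genes that reach both floors is not given here, so the counts compare roles only. In Cyp2g1-rich cells 13 members reached 5 CPM in every library. Among them were the assembly factors Cfap298, Dnaaf2 and Dnaaf5 and the spoke genes Rsph3a, Rsph3b and Rsph9. The median share of the ciliated level in Omp-positive neurons was 41.8% for the spokes, 36.8% for the central pair and 0.388% for the inner arms. Over the 12 dynein heavy chains at 5 CPM in ciliated cells it was 0.495%, and over the 50 other members 27.5%.

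**Figure D2:**
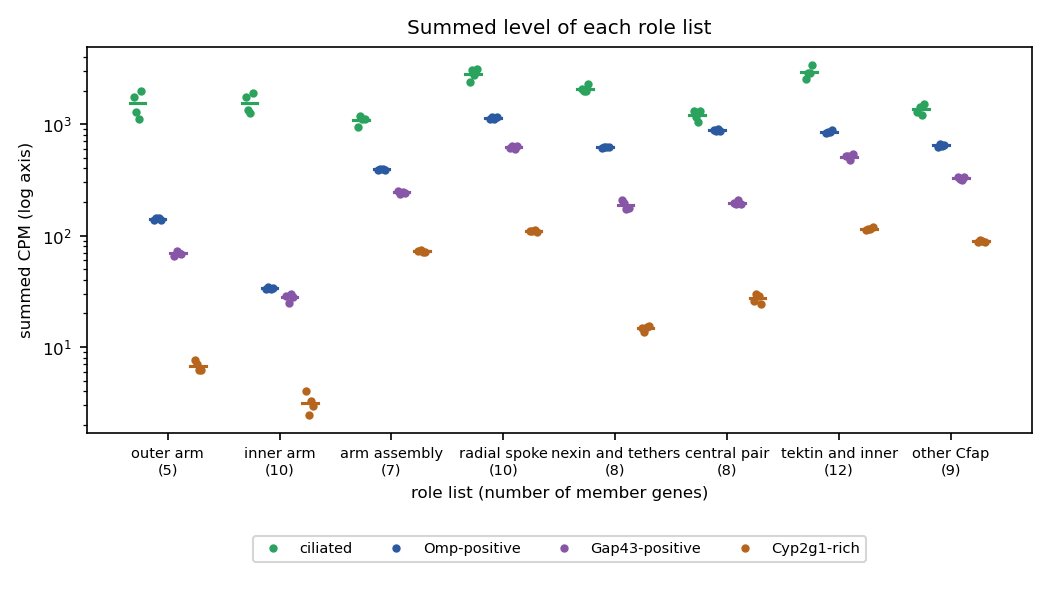
Summed CPM (log axis) of each role list in ciliated, Omp-positive, Gap43-positive and Cyp2g1-rich cells, with 1 point per library and a bar at the mean of 4. The step from ciliated to Omp-positive sums is widest for the inner arm list, from 1553 to 33.7 CPM. It is narrowest for the central pair, from 1209 to 879 CPM, a sum that includes Cfap69, which is higher in Omp-positive neurons. By the median share of the ciliated level per gene, other Cfap genes (45.8%) and spokes (41.8%) lie above the central pair (36.8%).

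Dynein heavy chains as a group differed more between ciliated cells and mature neurons than the other members did. All 13 heavy chains tested were higher in ciliated cells than in Omp-positive neurons, within a total of 56 of 65 members higher (32.8% of all genes tested) and 3 lower (40.8%). The median log2 difference of the heavy chains was 7.41, against 1.74 over the 52 other members tested and -0.22 over all genes. A list of 8 light and other dynein chains outside the symbol rule summed to a mean of 3308 CPM in ciliated cells. Its mean was 1206 CPM in Omp-positive neurons and 763 CPM in Cyp2g1-rich cells. By CPM without scaling, 54 of the 65 members had ciliated levels above the Omp-positive ones with no overlap of libraries, as did 26.8% of all genes.

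Among outer arm chains, Dnah5 is the heavy chain found along respiratory cilia, with Dnah11 paired with it near the base and Dnah9 towards the tip. Dnah5 stood at 932, 674, 632 and 1037 CPM in ciliated cells and at 4.35, 3.5, 3.63 and 3.60 CPM in Omp-positive neurons (log2 difference 7.65 ± 0.10 (SE), adjusted p = 4.1e-17 by edgeR). Dnah9 stood at 627, 468, 406 and 737 CPM against 28.6, 27.6, 28.8 and 29.1 CPM (log2 4.20 ± 0.11, adjusted p = 2.8e-14 by edgeR). Dnah11 stood at 168, 142, 76.1 and 202 CPM against 104, 109, 108 and 105 CPM. Among these 3 genes only Dnah11 had ciliated libraries that overlapped the neurons, and its male 1 value lay below all 4 neuron values. Its log2 difference of 0.44 ± 0.13 passed the edgeR test (adjusted p = 0.0075), and the call was lost without female 1 (log2 0.35), without male 2 (log2 0.31) and when barcodes in several classes were kept as ciliated. That error rests on the spread shared by the populations, while the ciliated libraries alone ran from 76.1 to 202 CPM. Dnah11 overlaps Cdca7l on the other strand, and the sources used here do not say whether counting used strand. After thinning to 2000 UMIs, 19.6% ± 0.43 of Omp-positive neurons had a Dnah11 UMI, 0.814% ± 0.284 of Cyp2g1-rich cells did, and Dnah5 was seen in 0.681% ± 0.0620 and 0.258% ± 0.128 (SD, n = 4). Unthinned, the Dnah11 shares were 51.1% and 4.11% and the Dnah5 shares 2.77% and 1.39%.

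Most inner arm chains had low values in mature neurons. Dnah6, a single-headed inner arm chain, stood at 384, 320, 302 and 364 CPM in ciliated cells and at 0.562, 0.289, 0.158 and 0.482 CPM in Omp-positive neurons (log2 9.72 ± 0.25, adjusted p = 2.9e-14 by edgeR). Dnah10, a chain of the inner arm that carries a pair of heads, stood at 389, 337, 228 and 449 CPM against 1.42, 1.22, 1.26 and 1.54 CPM. Dnah3 stood at 271, 175, 144 and 297 CPM against 0.148, 0.225, 0.221 and 0.386 CPM. None of these came near overlapping. Dnah6 and Dnah3 were not called between Omp-positive and Cyp2g1-rich cells, with log2 differences of 0.43 ± 0.38 and 0.11 ± 0.48 (adjusted p = 0.29 and 0.93 by edgeR). Dnah7a was the inner arm chain above 5 CPM in every Omp-positive library, at 23.9, 26.5, 26.3 and 23.7 CPM in Omp-positive neurons and 72.3, 73.8, 124 and 83.4 CPM in ciliated cells. Its near copies Dnah7b and Dnah7c stood at 0.347 to 0.545 and 0.631 to 1.21 CPM in Omp-positive neurons, and how the counting split reads among the 3 copies is uncertain.

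Arm assembly factors reached 5 CPM in every Omp-positive library with 1 exception. Cfap298, Dnaaf2 and Dnaaf5 also reached it in every Cyp2g1-rich library. Dnaaf2 and Dnaaf5 are not among the 43 members described above for Omp-positive neurons. Dnaaf1 and Dnaaf4, which act before arms enter the cilium, stood at 29.4 to 31.6 and 18.3 to 20.9 CPM in Omp-positive neurons and 117 to 124 and 73.3 to 127 CPM in ciliated cells. Cfap298 stood at 245, 259, 259 and 251 CPM against 398, 530, 403 and 428 CPM in ciliated cells (log2 0.69 ± 0.07, adjusted p = 1.8e-07 by edgeR), a call that was lost with the ciliated gate at 3 UMIs. Dnaaf3 stood at 0.857, 0.738, 0.662 and 1.06 CPM in Omp-positive neurons, at 166, 187, 211 and 208 CPM in ciliated cells and at 2.19, 1.65, 1.78 and 1.77 CPM in Cyp2g1-rich cells. Mature neurons thus lay below the supporting cells for Dnaaf3 (log2 -1.27 ± 0.27, adjusted p = 4.3e-04 by edgeR). The gene spans of Dnaaf3 and Tnni3 overlap on the same strand, and whether this affects the Dnaaf3 counts was not tested.

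**Figure D3:**
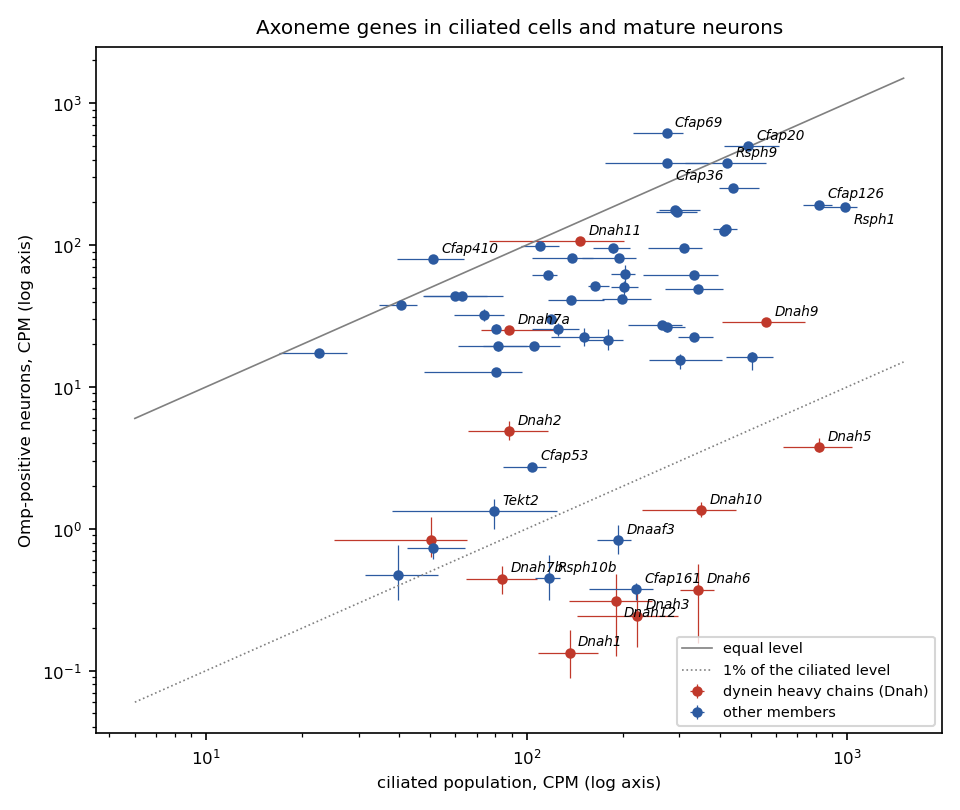
Mean CPM in Omp-positive neurons against mean CPM in ciliated cells (both log axes) for the 62 members with at least 5 CPM in every ciliated library, with lines from the lowest to the highest library. Of the 12 dynein heavy chains (red), all but Dnah11, Dnah9, Dnah7a, Dnah2 and Dnah7c lie under the line of 1% of the ciliated level, and most other members (blue) lie between that line and equality.

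Genes of the spokes and regulatory complex ranged from levels near the ciliated ones to under 1 CPM in mature neurons. Rsph9, a protein of the spoke head, stood at 361, 382, 366 and 394 CPM in Omp-positive neurons and at 311, 469, 350 and 558 CPM in ciliated cells, with overlapping libraries and no call (log2 0.05 ± 0.09, adjusted p = 0.67 by edgeR). DESeq2 and a ciliated gate at 12 UMIs did call Rsph9 higher in ciliated cells, and a gate at 3 UMIs called it lower (log2 -0.54, adjusted p = 1.9e-04 by edgeR). Rsph1, another spoke head protein, stood at 176, 193, 181 and 192 CPM against 806, 1046, 1012 and 1077 CPM, with no overlap (log2 2.29 ± 0.07, adjusted p = 2.5e-13 by edgeR). Cfap206, at the spoke base, stood at 173, 179, 180.4 and 179.5 CPM against 259, 348, 271 and 285 CPM, also with no overlap. Of the spoke genes tested, Rsph10b had low values in neurons, with 0.315 to 0.650 CPM against 107 to 127 CPM in ciliated cells. Rsph9 overlaps Mrps18a on the other strand, and Rsph3a and Rsph3b are near copies that stood at 90.3 to 98.2 and 78.6 to 83.4 CPM in Omp-positive neurons. The calls of Cfap206 and Drc1 between ciliated cells and mature neurons were lost with the ciliated gate at 3 UMIs. Drc1, a scaffold of the regulatory complex, stood at 164, 177, 169 and 175 CPM in Omp-positive neurons and at 254, 270.4, 319 and 339.7 CPM in ciliated cells. Cfap44 and Cfap43, which tether inner arms, differed in their share: Cfap44 stood at 119 to 132 CPM against 398 to 431 CPM, and Cfap43 at 13.1 to 17.6 CPM against 420 to 587 CPM. Cfap73 of the same list stood at 0.315 to 0.771 CPM against 31.4 to 53.1 CPM, and had 0 UMIs in Gap43-positive neurons.

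Cfap69, a central pair protein known for its part in olfactory cilia and in sperm, was the member furthest above its ciliated level among those tested. It stood at 616, 606, 627 and 611 CPM in Omp-positive neurons and at 308, 291, 214 and 281 CPM in ciliated cells. Gap43-positive neurons held 106, 108, 118 and 115 CPM, double-positive neurons 344, 352, 363 and 335 CPM, and Cyp2g1-rich cells 17.3, 18.7, 18.8 and 17.2 CPM. The order from Omp-positive over double-positive, ciliated and Gap43-positive to Cyp2g1-rich held with no overlap of libraries. Ciliated cells were lower than Omp-positive neurons by edgeR (log2 -1.23 ± 0.08, adjusted p = 1.7e-09), and the difference lay between -1.68 and -0.48 over the alternatives, the smallest when barcodes in several classes were kept as ciliated. After thinning, 69.0% ± 1.15 of Omp-positive neurons, 45.1% ± 7.29 of ciliated, 20.4% ± 2.49 of Gap43-positive and 3.80% ± 0.287 of Cyp2g1-rich cells had a Cfap69 UMI. Unthinned shares were 96.5%, 87.8%, 61.3% and 19.3%. The other members lower in ciliated cells were Cfap410 (75.4 to 83.4 CPM in Omp-positive neurons, 39.5 to 63.8 CPM in ciliated cells) and Cfap36 (361 to 391 CPM, 176 to 362 CPM). Cfap69 and Cfap410 did so with no overlap of libraries, as did 37.3% of all genes tested. Cfap36 overlapped through female 2, and neither Cfap410 nor Cfap36 is in a role list. Ciliated cells lay above Omp-positive neurons in the other central pair gene with the highest ciliated level, Cfap54, at 271 to 409 against 45.8 to 50.1 CPM.

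Tektins and inner doublet proteins were mixed. Cfap20, at the seam of the doublet, stood at 488, 496, 480.4 and 519 CPM in Omp-positive neurons and at 414, 518, 420.1 and 611 CPM in ciliated cells, and was not called (log2 -0.13 ± 0.07, adjusted p = 0.11 by edgeR). Cfap126 stood at 179, 195, 193 and 203 CPM against 731, 769, 863 and 899 CPM. Cfap161 stood at 0.315 to 0.418 CPM in Omp-positive neurons and 156 to 249 CPM in ciliated cells. Cfap53 stood at 2.69 to 2.84 CPM in Omp-positive neurons, below the 7.66 to 8.86 CPM of Cyp2g1-rich cells (log2 -1.67 ± 0.18, adjusted p = 2.4e-07 by edgeR). At a floor of 5 CPM in every library, 12 members reached it in all 4 populations: Cfap20, Cfap36, Cfap69, Cfap97, Cfap126, Cfap298, Cfap410, Dnaaf2, Dnaaf5, Rsph3a, Rsph3b and Rsph9. In Cyp2g1-rich cells Cfap69 stood at 2.93% of its Omp-positive level, within the range given above for genes of mature neurons. How much of that level is free RNA was not tested. Cfap126 stood at 3.46%, just above that range. Among the 12 Cfap97 showed the flattest profile, with 16.9 to 27.6 CPM in ciliated cells, 16.7 to 18.6 CPM in Omp-positive neurons, 21.6 to 26.2 CPM in Gap43-positive neurons and 18.6 to 20.8 CPM in Cyp2g1-rich cells. At the other end, 12 members reached the floor in every ciliated library and stayed under it in every library of both neuron populations: Dnah3, Dnah6, Dnah7b, Dnah7c, Dnah10, Dnah12, Dnaaf3, Rsph10b, Cfap53, Cfap73, Cfap161 and Cfap221.

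Most members were higher in mature than in immature neurons. Between Omp-positive and Gap43-positive neurons 48 of 65 members were higher (38.4% of all genes tested), 6 were lower (34.3%) and 11 were not called, with a median log2 difference of 1.58 against 0.02 over all genes. Without the TMM scaling, which moved the median of all genes by 0.36, 44 members were higher and 9 lower, and the higher share of all calls fell from 52.8% to 34.5%. Levels in double-positive neurons lay between the other 2 neuron populations with no overlap of libraries, rising, for 30 members, against 7.67% of all genes, and falling for 3, against 14.6%. Double-positive cells were deeper, at a median of 12417 to 13890 UMIs per library, against 10035 to 10824 in Gap43-positive and 7531 to 8343 in Omp-positive neurons. Whether barcodes holding 2 cells remained among them was not tested.

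Among members whose mean reached 5 CPM in at least 1 of the 2 populations, the largest rise was that of Cfap46, Cfap299, Cfap100, Cfap157 and Tekt4. Cfap46, a central pair protein, stood at 0.913, 0.801, 0.649 and 1.53 CPM in Gap43-positive neurons, 2.91, 2.81, 1.84 and 3.69 CPM in double-positive neurons and 19.3, 19.5, 25.9 and 25 CPM in Omp-positive neurons. Its 3 stages did not overlap (log2 4.87 ± 0.25 between the outer stages, adjusted p = 8.4e-11 by edgeR), and Gap43-positive neurons were not called above Cyp2g1-rich cells (log2 0.34 ± 0.46, adjusted p = 0.51 by edgeR). Cfap100, an inner arm tether, stood at 7.12, 5.60, 8.44 and 7.2 CPM, then 51.4, 61.3, 63.2 and 52.9 CPM, then 91.8, 96.2, 107 and 100.4 CPM (log2 4.16 ± 0.09, adjusted p = 3.2e-15 by edgeR). In ciliated cells Cfap100 stood at 121, 98.9, 95.9 and 126 CPM, which overlaps the mature neurons (log2 0.10 ± 0.09, adjusted p = 0.32 by edgeR). Cfap100 was called higher in ciliated cells without scaling, by DESeq2 and with a gate on Sntn alone, and lower with the ciliated gate at 3 UMIs (log2 -0.49, adjusted p = 7.3e-04 by edgeR). Cfap299, Cfap157 and Tekt4 rose by log2 4.72, 4.01 and 3.79. Cfap100 overlaps Zxdc on the other strand and Cfap299 overlaps Gm11111 on the same strand.

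**Figure D4:**
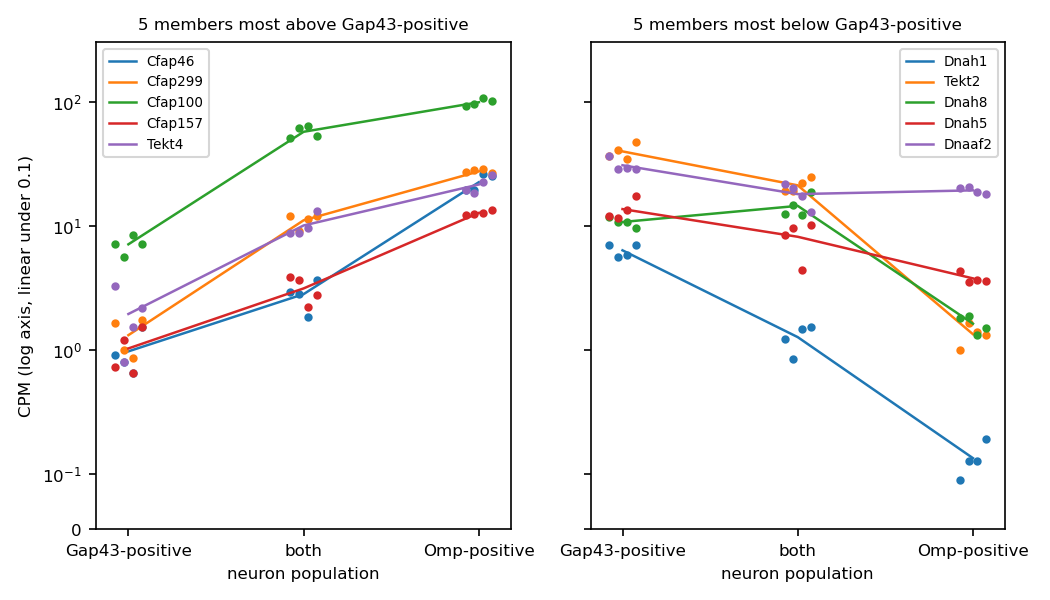
CPM (log axis, linear under 0.1) in Gap43-positive, double-positive (both) and Omp-positive neurons for the 5 members with the largest rise (left) and the 5 with the largest fall (right) among those at 5 CPM or more in 1 of the outer stages, with 1 point per library and lines through the means. Cfap46 goes from under 1.6 to above 19 CPM, and Tekt2 from above 34 to under 1.7 CPM.

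Members that were lower in mature neurons were Dnah1, Tekt2, Dnah8, Dnah5, Dnah12 and Dnaaf2. Tekt2, a filament protein of the doublet wall, stood at 36.7, 40.6, 34.4 and 47.3 CPM in Gap43-positive neurons, 18.9, 19.1, 22.1 and 24.6 CPM in double-positive neurons and 1.01, 1.64, 1.39 and 1.32 CPM in Omp-positive neurons, with no overlap (log2 -4.54 ± 0.22, adjusted p = 3.5e-11 by edgeR). Dnah1, an inner arm chain, went from 6.94, 5.60, 5.84 and 6.98 CPM through 1.21, 0.844, 1.47 and 1.54 CPM to 0.0887, 0.128, 0.126 and 0.193 CPM, again with no overlap (log2 -5.13 ± 0.30, adjusted p = 3.8e-10 by edgeR). The Omp-positive values of Dnah1 rest on 17 UMIs over the 4 libraries. Dnah5 went from 12.1, 11.6, 13.4 and 17.4 CPM through 8.49, 9.56, 4.41 and 10.1 CPM to 4.35, 3.5, 3.63 and 3.60 CPM (log2 -1.47 ± 0.16, adjusted p = 5.5e-07 by edgeR). The outer arm chains Dnah9 and Dnah11 rose by log2 1.56 and 2.11, while Dnah8, also of the outer arm, was lower in mature neurons like Dnah5. Dnah8 stood at 9.59 to 11.7 CPM, 12.1 to 18.8 CPM and 1.32 to 1.86 CPM at the 3 stages, so its highest values were in double-positive neurons. Dnah8 overlaps Glo1 on the other strand. After thinning, 7.98% ± 1.48 of Gap43-positive and 0.195% ± 0.0357 of Omp-positive neurons had a Tekt2 UMI, against 0.0817% ± 0.0353 of Cyp2g1-rich cells (29.7%, 0.923% and 0.440% unthinned). The ciliated values of Tekt2 were 38.1, 78.6, 76.1 and 124 CPM, all but female 1 above the Gap43-positive ones.

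Partner genes outside the symbol rule, from lists drawn up by role, were described beside the members. All 11 tested assembly and docking factors were higher in Omp-positive than in Cyp2g1-rich cells, where 44.1% of all genes tested were higher and 42.3% lower, as were all 3 further regulatory complex genes and all 9 further inner doublet genes. In the same comparison 5 of 6 further central pair genes were higher and Spag17 was lower. Spag17 stood at 203, 241, 175 and 274 CPM in ciliated cells and at 0.177, 0.128, 0.189 and 0.386 CPM in Omp-positive neurons. Ccdc40, which sets the spacing of the arms along the doublet, stood at 240.1, 249, 243 and 221 CPM in Omp-positive neurons and 297, 345, 248 and 355 CPM in ciliated cells. Of the 8 regulators 5 were higher in Omp-positive than in Cyp2g1-rich cells (Foxj1, Rfx2, Rfx3, Ccno and Trp73), Myb was lower, and Mcidas and Gmnc were not called. Between Omp-positive and Gap43-positive neurons Foxj1, Rfx2, Rfx3 and Ccno were higher (38.4% of all genes), Myb, Trp73 and Mcidas were lower (34.3%), and Gmnc was not called. Foxj1, the forkhead factor of motile ciliogenesis, stood at 252 to 279 CPM in Omp-positive neurons and 1355 to 1583 CPM in ciliated cells, and Rfx3, which binds the X-box of cilium genes, at 191 to 201 CPM and 95.9 to 159 CPM.

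Promoters were searched for the motifs of these factors, separately for members that neurons share and members that they do not. RefSeq windows on GRCm38.p6 matched 57 of the 69 members in 64 windows, and the 250 bases before each start were searched on both strands for the X-box (GTTGCC, then any 2 bases, then GGNAAC), its half-site (GTTGCCA) and a forkhead motif (TGTTTAC). The X-box was in 1 member window (1.56%) and in 0.244% of 32851 windows of all genes. The half-site was in 12 member windows (18.75%) and in 3.66% of all, and the forkhead motif in 4 (6.25%) and in 3.17%. By gene the half-site was found in 9 of the 36 matched members among the 43 described above for Omp-positive neurons (25%). It was found in 2 of the 8 matched among the 12 under 5 CPM in both neuron populations (25%), and in 4.19% of all genes. Sequences are shown 5′ to 3′ on the gene's strand with the motif in capitals, for 3 members that both cell types transcribe (Cfap298, Cfap44 and Drc1), 1 highest in immature neurons after ciliated cells (Dnaaf2) and 1 at low values in neurons (Cfap161). TGGCAAC is the half-site on the other strand. Apart from Cfap298, stretches hold at most 100 bases and stop at or before the start of the GENCODE gene.
Cfap298 (minus strand, chr16:90935016-90935045): gggttttgGTTGCCCGGGCAACagctactt
Cfap44 (plus strand, chr16:44394626-44394725): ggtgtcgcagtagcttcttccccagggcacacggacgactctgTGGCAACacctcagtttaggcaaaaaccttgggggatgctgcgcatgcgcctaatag
Drc1 (plus strand, chr5:30281293-30281387): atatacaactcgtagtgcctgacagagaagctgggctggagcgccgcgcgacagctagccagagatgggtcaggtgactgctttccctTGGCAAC
Dnaaf2 (minus strand, chr12:69198430-69198529): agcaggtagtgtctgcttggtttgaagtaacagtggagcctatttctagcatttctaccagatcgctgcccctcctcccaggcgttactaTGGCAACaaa
Cfap161 (minus strand, chr7:83794881-83794949): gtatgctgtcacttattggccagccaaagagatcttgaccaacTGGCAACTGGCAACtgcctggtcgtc
Cfap298 holds the 1 full X-box, 188 bases before its RefSeq start, inside the span of its GENCODE gene, so only 30 bases are shown. It also holds a half-site at 61 bases, which is not shown. Cfap44 holds 2 half-sites, at 130 and 20 bases before its RefSeq start, of which the first is shown. Cfap161 holds 3 half-sites, at 67, 60 and 40 bases before its RefSeq start, of which the first 2 are shown. A match is a stretch of letters and was not tested for binding. Cfap69 had no match to the 3 motifs in its window.

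Sex was the only condition that the libraries vary. No member was called between 2 male and 2 female libraries, with 62 members tested in ciliated cells (0.0115% of all genes called higher in males and 0% lower) and 63 in Omp-positive neurons (0.00736% and 0%), by edgeR. At an unadjusted p under 0.05 there were 2 of 62 members in ciliated cells, beside 525 of all 8706 genes tested, and 5 of 63 in Omp-positive neurons, beside 901 of 13591. DESeq2 called 2 members higher in the Omp-positive neurons of males, Cfap46 (log2 0.43, adjusted p = 1.7e-04) and Tekt4 (log2 0.40, adjusted p = 0.026). The share of all genes that DESeq2 called is not given here. Both male values lay above both female values for each gene, 25.9 and 25 against 19.3 and 19.5 CPM for Cfap46 and 22.7 and 25.7 against 19.3 and 18.3 CPM for Tekt4, and edgeR gave adjusted p = 0.38 and 0.63. Since the 2 genes were picked by the call, this order of values is no separate check of it. With 2 libraries per sex the comparison could miss differences of this size.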

How the data were processed

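Single-cell RNA libraries of the main olfactory epithelium were analysed from the deposited matrices, in which each value is the raw count of UMIs for a gene in a barcode. Counting used Cell Ranger, version 6.0.2 per the file headers and 5.0.1 with build mm10 per the submitters' processing notes. A barcode was kept with at least 500 genes and at most 10% of UMIs from mitochondria. Doublets, scored in each library against simulated ones (2 per barcode, 50 neighbours), were removed at 0.8% per 1000 barcodes. The libraries then held 9339, 8962, 8869 and 9215 cells, whose median depth ran from 8253 to 9069 UMIs. No 2 libraries were copies (chi-square per degree of freedom 22.6 to 40.9 over genes). UMIs were summed per library and population, and levels are given as CPM of those sums, not scaled further.

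The sums were tested with edgeR 4.0.16 (R 4.3.3; quasi-likelihood, TMM, filterByExpr, adjustment over all genes tested). Populations were compared over 16 sums, blocked by library, with an estimate of the spread per gene that the 4 populations shared. Sex comparisons were of 2 sums against 2. The script was tested on simulated counts. DESeq2 1.42.0, no scaling, no filter, other gates, no doublet removal and leaving out each library were alternatives. The members, lists and tests were chosen with earlier results of these data known. Named genes were the members that passed the neuron criteria (at most 15 per population), the 2 highest in ciliated cells of each role list, the 5 with the largest difference in each direction between neuron stages among those with at least 5 CPM in 1 of them, those present in all populations, Cfap69, and any called between sexes. Others were named after their values were seen. Positions are from GENCODE M21 and RefSeq. SD, SE and shares cover these libraries only.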

Additional observations from a re-analysis of the deposited data

Results flagged for a closer look

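The 37 named members in 4 populations gave 148 groups of 4 libraries, of which the 132 with at least 40 UMIs were tested. In each of these the lowest and highest value were compared with the nearest other library. A gap beyond Dixon's 95% critical value was found in 7 groups, where chance, at about 1 in 20, would give 6.6, so the number is close to that of chance.

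In Omp-positive neurons female 1 was lowest for Cfap206, a spoke base gene, at 173.2 CPM against 179 to 180.4 CPM, and for Cfap43, an inner arm tether, at 13.1 CPM against 17.0 to 17.6 CPM. Female 1 was highest for Dnah5, the outer arm heavy chain, at 4.35 CPM against 3.5 to 3.63 CPM. In Gap43-positive neurons female 1 was highest for Rsph14, at 30.5 CPM against 28.6 to 28.8 CPM, and for the assembly factor Dnaaf2, at 36.3 CPM against 28.6 to 29.2 CPM. Male 1 was lowest there for Cfap206, at 79.4 CPM against 89.5 to 91.4 CPM, and highest for Cfap97, at 26.2 CPM against 21.6 to 22.2 CPM.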

How the results depend on the processing

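Of 186 alternative counts of called members, 182 stayed within 1.5 times the reported one. The exceptions were 2 members lower in Gap43-positive than in Cyp2g1-rich cells when barcodes in several classes were kept as ciliated, 7 lower in ciliated than in Omp-positive cells with the ciliated gate at 3 UMIs, 1 higher in males in ciliated cells without female replicate 2 (Tekt2, log2 1.41, adjusted p = 0.012 by edgeR, with female 1 alone assumed to vary like the males), and the 2 that DESeq2 called in males. Over the leave-one-out fits, members higher in male ciliated cells numbered from 0 to 1. The cause was not tested. The 37 named genes gave 3422 alternative fold changes, of which 3364 kept direction and call, 31 lost the call, 22 gained one and 5 reversed. Those were Cfap97 in Gap43-positive over Cyp2g1-rich cells (0.24) and Cfap410 in Omp-positive over Gap43-positive neurons (-0.083), both without scaling, and Rsph9 (-0.54), Dnah11 (-0.053) and Cfap100 (-0.49) in ciliated over Omp-positive cells with the gate at 3 UMIs, which changes the cells of both populations. Dnah10 in Gap43-positive over Cyp2g1-rich cells lost its call under 9 alternatives, and Cfap97 there lost its call or reversed under 7. Unscaled, the higher share of all calls was 64.7% instead of 50.1% for Gap43-positive against Cyp2g1-rich cells, and 47.7% instead of 36.9% for ciliated against Cyp2g1-rich cells.

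With the replicate number as a block, 0 members were called between the sexes in either population, as without it. Same-numbered libraries did not deviate together (r = 0.0012 over 5901 genes in ciliated cells, -0.045 over 12749 genes in Omp-positive neurons). The ciliated cells, 24 to 65 per library, limit all comparisons with them.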
